A study of Mus musculus with 18 samples.

Results

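The TRIM family is a set of ubiquitin ligases and related proteins named for their tripartite motif. Its members were taken as every protein-coding gene in the deposited count table whose name is Trim followed by a digit, leaving out *Trim25*. This gave 67 members of 21970 protein-coding genes and of 56748 genes in all. Of these members, 37 passed the filter on low counts and were tested, 22 had some counts but were not tested, and 8 had no count in any library.

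A TRIM protein typically carries a RING finger that passes ubiquitin to a substrate, 1 or more B-box zinc fingers, and a coiled coil through which the proteins pair. Some members lack the RING finger. The C-terminal domain differs between members and mostly sets what each one binds, with the PRY-SPRY domain the most common form in mouse. In macrophages the family is known for members that respond to interferon and for members that act on the signalling proteins below RNA, DNA and Toll-like receptors.

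RNA was sequenced from RAW 264.7 cells, a single immortalized mouse macrophage line, so the values describe 1 line and not macrophages of an animal. There were 18 libraries in 6 groups of 3, which the study's methods call biological replicates. Control cells were left untreated. The LPS group received 0.1 µg/mL lipopolysaccharide of Gram-negative bacteria for 12 h, and the PIC group received 20 µg/mL of poly I:C, a synthetic RNA duplex that stands in for viral RNA, for 12 h. The TBHQ group received 5 µM of the food antioxidant tert-butylhydroquinone and was harvested after 4 h. The LPS + TBHQ and PIC + TBHQ groups received the same TBHQ dose for 4 h and then the stimulus for 12 h. The study's design places control cells in the 12 h scheme, so TBHQ against control also holds a difference in harvest time, and the effects of the agent and of time cannot be told apart. TBHQ was dissolved in DMSO, and the methods name no DMSO for the control, LPS or PIC groups that were sequenced. As described, TBHQ and its solvent cannot be told apart in any comparison with TBHQ. The methods also do not say whether the LPS and PIC groups first spent 4 h in medium.

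Total counts per library ranged from 14423390 to 18851626, with a median of 15742337.5. The 67 members took between 0.156% and 0.179% of all counts. FPKM is a count scaled by gene length and by a library size set by the authors. The 6 macrophage markers *Adgre1*, *Csf1r*, *Cd68*, *Lyz2*, *Itgam* and *Spi1* summed to between 4370 and 5670 FPKM in every library. Their summed level averaged 5520 FPKM in control, 4620 under LPS, 4450 under PIC, 5030 under TBHQ, 5380 under LPS + TBHQ and 5030 under PIC + TBHQ, and the part of that shift in the member values was not tested. *Lyz2* was the most abundant marker at a mean of 4020 FPKM and carried most of the sum. Over the libraries *Adgre1* ranged from 11.5 to 70.7 FPKM, *Itgam* from 7.53 to 26.5 and *Csf1r* from 81.5 to 175. Markers of T cells, fibroblasts, endothelial and epithelial cells summed to at most 0.235 FPKM in any library for each type, and *Cd3e*, *Cd8a*, *Col1a2*, *Krt8* and *Krt18* had no count in all 18 libraries. In bulk RNA, fewer cells expressing a gene and less RNA per cell cannot be told apart.

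Levels differed widely among the members, and are compared here in FPKM, which divides by gene length. Over all libraries *Trim28* had the highest mean at 56.4 FPKM, followed by *Trim35* at 51.3, *Trim8* at 33.9, *Trim30a* at 33.6 and *Trim41* at 18.5 FPKM. These 5 genes held 47.1% of all counts of the family. Of the 37 tested members, 9 had a mean of 10 FPKM or more, 21 lay between 1 and 10 FPKM and 7 were below 1 FPKM. The 30 members that were not tested never passed 13 counts in a library, and the highest of them, *Trim43c*, had 113 counts over all libraries together. *Trim9*, *Trim31*, *Trim42*, *Trim52*, *Trim55*, *Trim58*, *Trim60* and *Trim61* had no count in any library, where 3 counts, the limit a count of 0 allows, correspond to 0.159 to 0.208 CPM (counts scaled to library size) for counting error only. The others not tested were *Trim5*, *Trim6*, *Trim10*, *Trim12a*, *Trim15*, *Trim29*, *Trim38*, *Trim40*, *Trim43a*, *Trim43b*, *Trim50*, *Trim54*, *Trim63*, *Trim66*, *Trim67*, *Trim71*, *Trim72*, *Trim75* and *Trim80*, each with 1 to 50 counts in all, and *Trim17*, *Trim43c* and *Trim69*. Of the tested members, *Trim7*, *Trim26* and *Trim32* were called in none of the edgeR comparisons.

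A gene was called changed at a false discovery rate (FDR) below 0.05, which is the Benjamini-Hochberg adjusted p of edgeR's quasi-likelihood test over all 13691 genes tested. Fold changes are given as log2FC, the log2 ratio of the first group to the second, with a standard error (SE) from the replicate log2 CPM. The comparisons against control share the control libraries and those within a stimulus share the stimulated libraries, so they are not independent of each other.

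LPS against control asked which members a bacterial stimulus moved. The interferon-inducible *Trim30a*, *Trim30c*, *Trim34a* and *Trim34b*, with *Trim13* and *Trim35*, were among the members higher under LPS, and *Trim59*, *Trim28*, *Trim37* and *Trim65* were lower. In all, 18 of 67 members were called, or 48.6% of the 37 tested, where 48.1% of all genes tested were called. There were 11 members higher and 7 lower, against 24.0% of all genes higher and 24.1% lower. The share called among the members was thus close to that of all genes. With libraries scaled by their total count alone, 9 members were called higher and 9 lower. Of all genes called under that scaling, 35.0% were higher. The calls of *Trim11* and *Trim41* were lost in 4 of 15 alternatives each, and that of *Trim27* in 2. No member passed the study's stricter threshold of FDR below 0.01 and absolute log2FC above 2, which 1.64% of genes did, and none did so at an unadjusted p below 0.05 or in DESeq2. The member values ran from -1.06 for *Trim59* to 1.42 for *Trim30c*.

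PIC against control asked the same of a viral mimic. Of the members called, *Trim30c*, *Trim30b*, *Trim30d* and *Trim13* had the highest log2FC and *Trim59* the lowest. Here 27 of 67 members were called, or 73.0% of those tested, beside 58.7% of all genes. Of these, 15 were higher and 12 lower, where 28.6% of all genes were higher and 30.1% lower. The stricter threshold was passed by 2 members, *Trim30b* and *Trim30c*, and by 3.57% of all genes, while 0 members passed it with a filter at a mean of 50 counts or in limma on log2(FPKM + 1), and 1 in limma on log2(FPKM + 0.1). Scaling by total count lowered the log2FC of all genes by a median of 0.22 in this comparison and gave 11 members higher and 18 lower. Values in this comparison are therefore read relative to that shift. Of all genes called when scaled by total count, 26.4% were higher. The *Trim27* call was lost in 3 of 15 alternatives.

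PIC against LPS compared the stimuli directly. *Trim30c*, *Trim13*, *Trim34b*, *Trim30a* and *Trim56* were higher under PIC, and 9 members including *Trim2*, *Trim68* and *Trim45* were lower. The 14 members called of 67 are 37.8% of those tested, beside 27.7% of all genes. The 5 higher and 9 lower compare with 14.9% of all genes higher and 12.8% lower. Scaling by total count shifted all genes down by a median of 0.13 log2 and gave 3 members higher and 13 lower. Of all genes called under that scaling, 18.4% were higher. Without LPS replicate 2 or LPS replicate 3, 3 members were called higher, and without PIC replicate 3, 4 were called lower. The *Trim56* value of 0.14 lost its call in 7 of 15 alternatives, among them scaling by total count at 0.006 and leaving out LPS replicate 2 or 3 or PIC replicate 1 or 2. The *Trim34b* value of 0.39 lost its call in 4 of 15, under scaling by total count at 0.26 and without LPS replicate 2, LPS replicate 3 or PIC replicate 2. Among the lower members, the calls of *Trim11*, *Trim14* and *Trim24* were lost in 7, 6 and 6 of 15, that of *Trim68* without LPS replicate 2 at -0.40 and without PIC replicate 3 at -0.36, and that of *Trim44* without PIC replicate 3 at -0.12.

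TBHQ alone, at 4 h, was compared with control. *Trim30a*, *Trim12c*, *Trim34b* and *Trim30c* were lower and *Trim65*, *Trim16*, *Trim39*, *Trim56*, *Trim11* and *Trim27* were higher. These 10 of 67 members are 27.0% of those tested, beside 29.0% of all genes. The 6 higher and 4 lower stand beside 14.2% and 14.8% of all genes, and the share is again close to the background. DESeq2 called 4 higher and 4 lower, and 51.0% of all genes it called were higher. The *Trim11* value of 0.18 lost its call in 8 of 15 alternatives, among them DESeq2 and leaving out control replicate 1 or 2 or any TBHQ replicate. The *Trim39* value of 0.21 lost its call in 7 of 15, among them DESeq2 and leaving out control replicate 2 or 3, TBHQ replicate 2, or TBHQ replicate 1 at 0.14, and *Trim27* lost its call without control replicate 1 or TBHQ replicate 3. Without TBHQ replicate 3, 2 members were called lower.

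TBHQ before LPS, against LPS alone, asked whether pre-exposure changed the stimulated levels. Of the 11 tested interferon-inducible or antiviral members, a list chosen with earlier results known, 9 were lower with TBHQ, led by *Trim30c* and *Trim30d*. The members *Trim16*, *Trim2*, *Trim27*, *Trim37* and *Trim8* were higher. There were 16 of 67 members called, or 43.2% of those tested, beside 23.9% of all genes. Lower members numbered 11 and higher members 5, where 12.2% of all genes were lower and 11.7% higher. The *Trim37* call, at 0.20, was lost without LPS replicate 1 at 0.17.

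TBHQ before PIC gave 18 of 67 members called, or 48.6% of those tested, beside 31.3% of all genes. *Trim30c*, *Trim30b*, *Trim30d*, *Trim13* and *Trim34b* were among 10 lower members, and *Trim62*, *Trim2*, *Trim47* and *Trim16* among 8 higher ones. For all genes these shares were 15.5% lower and 15.8% higher. Scaling by total count gave 14 members higher and 7 lower. Of all genes called under that scaling, 70.3% were higher. Members called higher numbered 4 without PIC replicate 1. They numbered 5 without PIC replicate 2, PIC + TBHQ replicate 1 or PIC + TBHQ replicate 3. The *Trim11* call, at 0.20, was lost in 7 of 15 alternatives.

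The difference of the TBHQ effects, that under PIC minus that under LPS, was called for 1 of 67 members, *Trim14*, or 2.7% of those tested beside 1.83% of all genes. It was positive, as it was for 0.825% of all genes, while no member was called negative in edgeR or DESeq2, beside 1.01% of all genes. At an unadjusted p below 0.05 there were 6 members with a positive difference and 0 with a negative one, beside 7.31% and 6.86% of all genes, and the split was not tested.

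**Figure D1:**
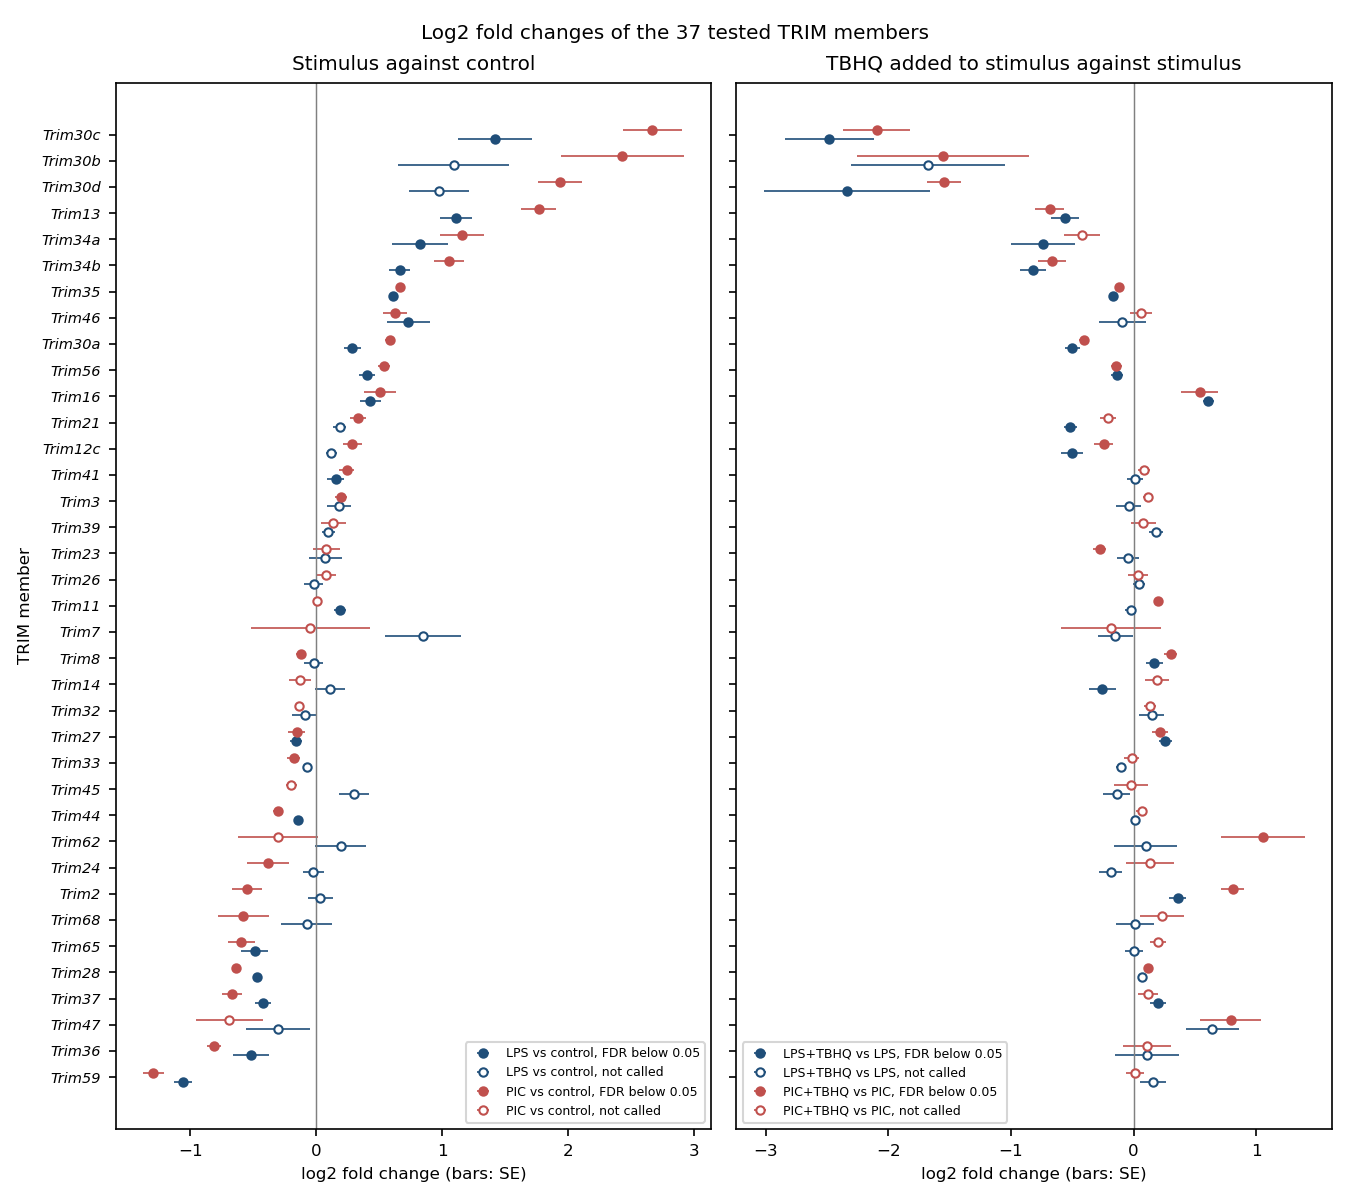
Log2 fold change of each of the 37 tested TRIM members, with LPS or PIC against control on the left and each stimulus with TBHQ against the stimulus alone on the right. Points are fold changes and bars are SE, with filled points called at FDR below 0.05. *Trim30c* lies at 2.67 for PIC on the left and at -2.10 for PIC + TBHQ on the right, and *Trim59* lies lowest on the left, at -1.30 for PIC.

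The largest cluster of members lies on chromosome 7, where 10 members start within 1 Mb of a neighbour. They span 103868000 to 104157056 by the coordinates of the deposited tables, whose labels name both GRCm38 and mm39. Of the 67 member starts in the tables, 1 equals its start in GENCODE M21 on GRCm38, so gene positions given from the tables do not line up with positions on GRCm38.p6. In order they are *Trim6*, *Trim34a*, *Trim5*, *Trim12a*, *Trim34b*, *Trim12c*, *Trim30b*, *Trim30c*, *Trim30a* and *Trim30d*. Of the 7 tested, 7 were higher under PIC and 4 under LPS, where 28.6% and 24.0% of all genes were higher. With TBHQ added, 6 were lower under LPS and 6 under PIC, where 12.2% and 15.5% of all genes were lower. *Trim5*, *Trim6* and *Trim12a* had too few counts to test.

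*Trim30a* is a PRY-SPRY member known as an interferon-inducible regulator of Toll-like receptor signalling through TAB2 and TAB3. Its gene, ENSMUSG00000030921, lies on the minus strand at chr7:104058232-104114400. Levels were 32.1, 30.4 and 32.5 FPKM in control, 40.3, 40.4 and 35.6 under LPS and 48.7, 46.2 and 49.1 under PIC. All LPS libraries were above all control libraries, and all PIC libraries above all LPS libraries. The log2FC was 0.28 ± 0.07 (SE, edgeR FDR = 1.88e-06) under LPS, and 0.58 ± 0.04 (SE, edgeR FDR = 7.33e-14) under PIC. With TBHQ the levels were 19.9, 19.8 and 19.3 FPKM alone, 27.4, 27.4 and 27.4 with LPS and 34.4, 37.4 and 36.3 with PIC. Each TBHQ group lay entirely below its partner without TBHQ. The log2FC of TBHQ was -0.69 ± 0.03 (SE, edgeR FDR = 3.82e-14) alone, -0.50 ± 0.06 (SE, edgeR FDR = 4.79e-11) with LPS, and -0.40 ± 0.04 (SE, edgeR FDR = 3.67e-09) with PIC. Scaling by total count took the PIC value against control to 0.37.

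*Trim30c*, a paralog on the minus strand at chr7:104031272-104050044, was expressed at far lower FPKM. In edgeR it had the widest changes of the members against control and with TBHQ added to either stimulus. It stood at 0.721, 0.787 and 1.07 FPKM in control, 3.08, 2.23 and 1.67 under LPS and 5.25, 6.92 and 4.61 under PIC. The groups did not overlap, and the order was control, LPS, PIC. Relative to control the log2FC was 1.42 ± 0.29 (SE, edgeR FDR = 5.99e-05) for LPS, and 2.67 ± 0.23 (SE, edgeR FDR = 2.18e-11) for PIC. TBHQ libraries read 0.479, 0.463 and 0.171 FPKM, LPS + TBHQ libraries 0.592, 0.281 and 0.365 and PIC + TBHQ libraries 1.71, 1.11 and 1.05. All LPS + TBHQ libraries were below all control libraries, while PIC + TBHQ libraries overlapped them. The log2FC of TBHQ was -2.48 ± 0.36 (SE, edgeR FDR = 1.2e-07) with LPS, and -2.10 ± 0.27 (SE, edgeR FDR = 9.17e-09) with PIC. For TBHQ alone it was -1.21 ± 0.42 (SE, edgeR FDR = 0.0133), a call that was lost without control replicate 3 at a log2FC of -1.02, without TBHQ replicate 3 at -0.87, and in limma on log2(FPKM + 1) at -0.44. On that FPKM + 1 scale, where the added 1 weighs most on low levels, the *Trim30c* log2FC was 0.82 for LPS against control and -1.22 for TBHQ with LPS, both called.

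*Trim30b* and *Trim30d* rest on few counts and are given as counts. *Trim30d* had 10, 8 and 7 counts in control, 19, 12 and 13 under LPS and 25, 27 and 38 under PIC. With TBHQ it had 4, 3 and 8 counts alone, 0, 8 and 2 with LPS and 12, 8 and 11 with PIC. All PIC libraries were above all control, LPS and PIC + TBHQ libraries. Its log2FC was 1.93 ± 0.17 (SE, edgeR FDR = 0.000138) for PIC, -2.34 ± 0.68 (SE, edgeR FDR = 0.00132) for LPS with TBHQ, and -1.55 ± 0.14 (SE, edgeR FDR = 0.00285) for PIC with TBHQ. *Trim30b* had 7, 2 and 4 counts in control, 32, 15 and 19 under PIC and 2, 5 and 16 under PIC + TBHQ. PIC libraries were above all control libraries, and 1 PIC + TBHQ library, replicate 3, was above the lowest PIC library in counts. The log2FC of *Trim30b* was 2.43 ± 0.49 (SE, edgeR FDR = 0.000576) for PIC, and -1.55 ± 0.70 (SE, edgeR FDR = 0.0237) for PIC with TBHQ. That last call was lost without PIC replicate 1 at -1.13, without PIC + TBHQ replicate 1 at -1.11 and without PIC + TBHQ replicate 2 at -1.38, and without PIC + TBHQ replicate 3 the value was -2.61. For *Trim30d* the LPS with TBHQ value was -3.96 without LPS + TBHQ replicate 2, the library with 8 counts. In limma on log2(FPKM + 1) the PIC values against control were 0.21 for *Trim30b* and 0.43 for *Trim30d*, and in limma on log2(FPKM + 0.1) that of *Trim30b* was 1.11. In limma on log2(FPKM + 1) the values for TBHQ with PIC were -0.17 for *Trim30b* and -0.38 for *Trim30d*, and that of *Trim30d* for TBHQ with LPS was -0.28.

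Paralogs in the cluster share sequence, so the counting by the authors could split reads between them. As a measure, every run of 50 bases in the GENCODE M21 transcripts of a member was looked up in the transcripts of all other genes. *Trim34b* shared 56.8% of its runs with *Trim34a*, and *Trim34a* shared 39.8% of its runs with *Trim34b*, so both genes are uncertain as separate values. *Trim12c* shared 33.7% of its runs with other genes, most of them with *Trim5*. The share was lower in the *Trim30* group, at 5.98% for *Trim30a*, 7.49% for *Trim30d*, 1.48% for *Trim30b* and 0.66% for *Trim30c*.

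*Trim34a* and *Trim34b* are interferon-inducible PRY-SPRY members. *Trim34b* had 3.24, 2.89 and 2.94 FPKM in control, 5.29, 4.59 and 4.54 under LPS and 6.34, 7.2 and 5.59 under PIC. With TBHQ it had 2.25, 2.21 and 2 FPKM alone, 2.42, 2.77 and 2.96 with LPS and 3.84, 3.84 and 4.21 with PIC. Every stimulated group without TBHQ was above control with no overlap, and LPS + TBHQ libraries overlapped control. Its log2FC was 0.66 ± 0.09 (SE, edgeR FDR = 0.000102) for LPS, 1.05 ± 0.12 (SE, edgeR FDR = 1.09e-08) for PIC, -0.82 ± 0.11 (SE, edgeR FDR = 1.45e-05) for TBHQ with LPS, and -0.67 ± 0.11 (SE, edgeR FDR = 7.9e-05) for TBHQ with PIC. For TBHQ alone it was -0.49 ± 0.07 (SE, edgeR FDR = 0.0117), lost without control replicate 1 at -0.44 and without TBHQ replicate 3 at -0.44.

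*Trim34a* read 1.48, 1.16 and 1.12 FPKM in control, 2.23, 2.71 and 1.73 under LPS, 3.14, 2.36 and 2.96 under PIC, 1.59, 1.02 and 1.39 under LPS + TBHQ and 1.86, 2.28 and 2.14 under PIC + TBHQ. LPS and PIC libraries overlapped each other, and both groups lay above control. The log2FC was 0.82 ± 0.22 (SE, edgeR FDR = 0.000727) for LPS, and 1.16 ± 0.17 (SE, edgeR FDR = 2.75e-06) for PIC. TBHQ with LPS gave -0.74 ± 0.26 (SE, edgeR FDR = 0.00435), lost without LPS replicate 2 at -0.57, and TBHQ with PIC gave -0.42 ± 0.15 (SE, edgeR FDR = 0.0716), which was not called. In limma on log2(FPKM + 1) the values were 0.51 for LPS, 0.76 for PIC and -0.46 for TBHQ with LPS.

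*Trim12c* is a mouse relative of primate TRIM5, the retroviral capsid restriction factor. It had 11.2, 11.5 and 10.7 FPKM in control, 12.2, 12.5 and 11.6 under LPS and 13.3, 12.7 and 15 under PIC. With TBHQ it had 7.07, 6.72 and 7.2 FPKM alone, 7.67, 8.79 and 9.23 with LPS and 11.5, 12 and 11.1 with PIC. The 3 TBHQ libraries and the 3 LPS + TBHQ libraries were below every control library. TBHQ alone gave -0.67 ± 0.04 (SE, edgeR FDR = 2.25e-09), and TBHQ with LPS gave -0.50 ± 0.09 (SE, edgeR FDR = 5.33e-07). Under PIC the rise was 0.29 ± 0.08 (SE, edgeR FDR = 0.000341), a call that scaling by total count ended at a log2FC of 0.07, and TBHQ with PIC gave -0.24 ± 0.08 (SE, edgeR FDR = 0.00478), lost without PIC replicate 3 at -0.18.

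*Trim21*, a cytosolic antibody receptor that directs antibody-coated particles to the proteasome, lies in a separate pair with *Trim68* on chromosome 7. Its levels were 4.02, 4.03 and 3.79 FPKM in control, 4.3, 4.44 and 4.78 under LPS, 4.81, 5.41 and 4.85 under PIC, 3.25, 3.03 and 3.19 under LPS + TBHQ and 4.47, 4.11 and 4.33 under PIC + TBHQ. The LPS + TBHQ libraries were below all other libraries listed. TBHQ with LPS gave -0.52 ± 0.05 (SE, edgeR FDR = 3.97e-05). TBHQ with PIC, at -0.21 ± 0.065 (SE, edgeR FDR = 0.0664), and LPS against control, at 0.185 ± 0.054 (SE, edgeR FDR = 0.087), were not called. PIC against control gave 0.33 ± 0.06 (SE, edgeR FDR = 0.00151), which scaling by total count ended at a log2FC of 0.11.

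*Trim56*, which acts in STING and TLR3 signalling, rose by 0.40 log2 under LPS and by 0.54 under PIC. With TBHQ added it was lower, with log2FC of -0.13 in LPS and -0.14 in PIC. The LPS call was lost in 9 of 15 alternatives, which were DESeq2, total library size, no filter on low counts, both limma fits, and leaving out LPS replicate 1, at -0.09, or any LPS + TBHQ replicate. The PIC call was lost without PIC replicate 1 or PIC + TBHQ replicate 3 and under scaling by total count, at -0.07. *Trim26* was not called in any comparison, at a mean of 11.2 FPKM in control and 12.0 under PIC. *Trim14*, which lacks a RING finger and binds MAVS, was the only member with a called difference between the TBHQ effects. It had 8.14, 7.53 and 9.64 FPKM under LPS, 7.22, 6.79 and 7.24 under LPS + TBHQ, 7.26, 7.76 and 6.64 under PIC and 7.67, 7.84 and 8.95 under PIC + TBHQ. All LPS + TBHQ libraries were below all LPS libraries, while PIC and PIC + TBHQ libraries overlapped. The effect under LPS, -0.25 ± 0.11 (SE, edgeR FDR = 0.0184), lost its call in both limma fits, without LPS + TBHQ replicate 2 at -0.22 and without LPS replicate 3 at -0.15, and that under PIC, 0.19 ± 0.10 (SE, edgeR FDR = 0.0732), was not called. The difference of effects was 0.44 ± 0.15 (SE, edgeR FDR = 0.0319), higher in PIC. The call was lost in limma, with the compared groups alone, and without LPS replicate 3 at 0.32, PIC replicate 1 at 0.43, PIC replicate 3 at 0.37, LPS + TBHQ replicate 1 at 0.46, LPS + TBHQ replicate 2 at 0.42 or PIC + TBHQ replicate 3 at 0.37. *Trim14* overlaps *Nans* on the opposite strand and shared 29.5% of its 50-base runs with it. The study's methods call the libraries strand-specific, the deposited labels name both directional and non-directional ones, and the strand setting of the counting was not given in the sources used here.

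Taken as a list, the 15 interferon-inducible or antiviral members had 11 tested. The list was chosen with earlier results of these data known. It leaves out *Trim35*, with a role in IRF7 turnover, which was higher under both stimuli, and *Trim65*, an activator of MDA5, which was lower. Under LPS 5 of the 11 were higher and 6 not called, with a median log2FC of 0.40. Of all genes, 24.0% were higher at a median of 0.00. Under PIC 9 were higher and 2 not called, with a median of 0.58, where 28.6% of all genes were higher at a median of -0.01. TBHQ with LPS gave 9 lower and 2 not called at a median of -0.52, and TBHQ with PIC gave 7 lower and 4 not called at a median of -0.40, where 12.2% and 15.5% of all genes were lower at medians of 0.00 and 0.01. TBHQ alone gave 4 lower and 1 higher, *Trim56*, at a median of -0.49, beside 14.8% and 14.2% of all genes. The 37 members listed as PRY-SPRY include most of these genes and leave out the COS-box members, which were listed apart whether or not they carry that domain. Of these 37, 21 were tested, with 8 higher and 2 lower under LPS, beside 24.0% and 24.1% of all genes. Under PIC 11 were higher and 3 lower, beside 28.6% and 30.1%. Of those 21, TBHQ gave 2 higher and 9 lower with LPS, beside 11.7% and 12.2% of all genes, and 5 higher and 7 lower with PIC, beside 15.8% and 15.5%.

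**Figure D2:**
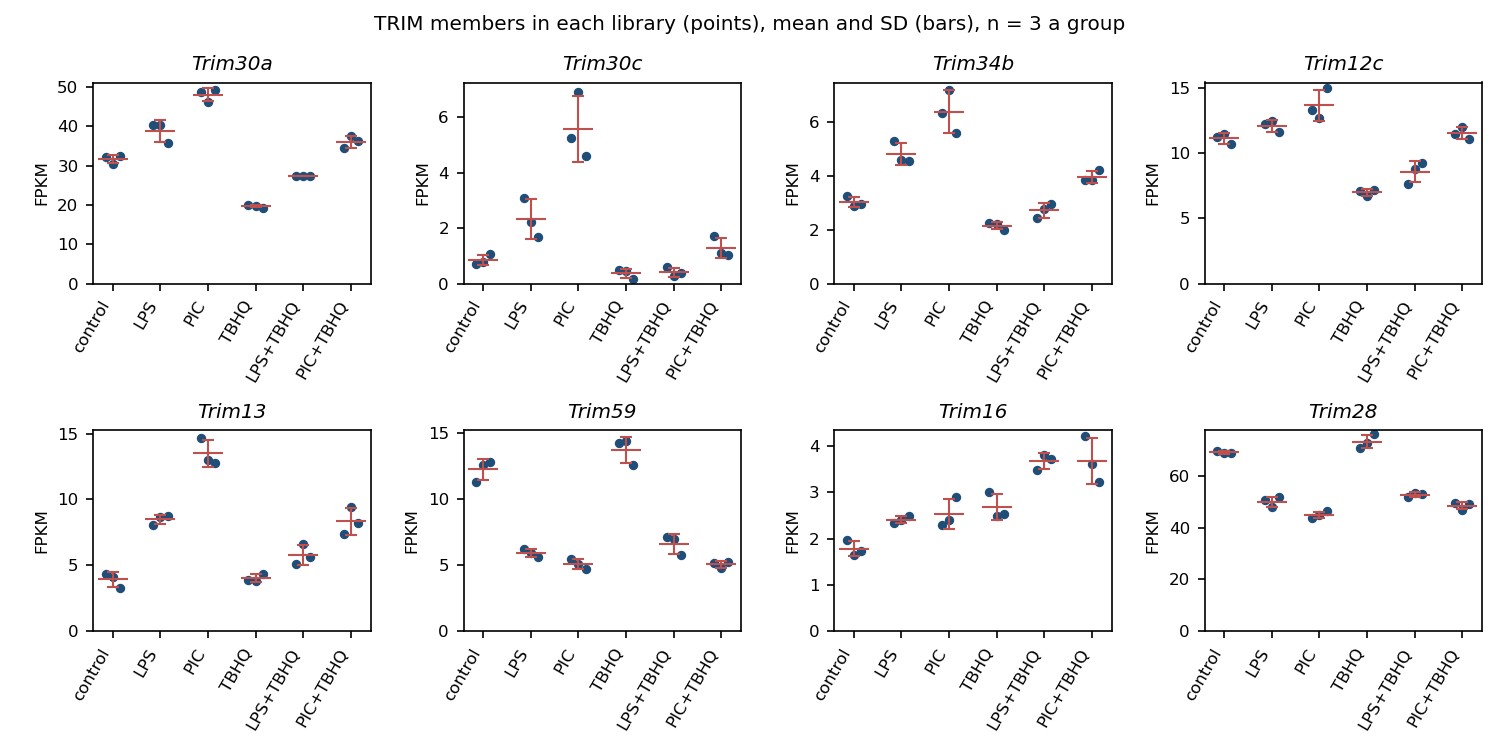
FPKM of 8 TRIM members in each of the 18 libraries, with a point per library and the mean and SD of each group of 3 as bars, on axes that start at 0. *Trim30a* spans 19.3 to 49.1 FPKM and is lowest under TBHQ alone, while *Trim59* falls from a control mean of 12.3 to 5.07 FPKM under PIC.

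Both members with a transmembrane segment were called under each stimulus, in opposite directions. Of all genes, 48.1% were called under LPS and 58.7% under PIC. *Trim13*, an endoplasmic reticulum protein linked to degradation at that organelle, had 4.34, 4.13 and 3.3 FPKM in control, 8.06, 8.65 and 8.73 under LPS and 14.7, 13 and 12.8 under PIC. With TBHQ it had 3.91, 3.82 and 4.37 FPKM alone, 5.07, 6.6 and 5.63 with LPS and 7.38, 9.43 and 8.2 with PIC. The levels did not overlap between control, LPS and PIC, and TBHQ alone overlapped control. Its log2FC was 1.11 ± 0.13 (SE, edgeR FDR = 2.2e-09) for LPS, 1.76 ± 0.14 (SE, edgeR FDR = 2.28e-15) for PIC, -0.56 ± 0.12 (SE, edgeR FDR = 0.000387) for TBHQ with LPS, and -0.68 ± 0.12 (SE, edgeR FDR = 4.03e-06) for TBHQ with PIC. The lncRNA *Dleu2* overlaps it on the opposite strand.

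*Trim59* fell under both stimuli. It had 11.3, 12.6 and 12.8 FPKM in control, 6.23, 5.9 and 5.61 under LPS and 5.44, 5.05 and 4.72 under PIC. The log2FC was -1.06 ± 0.07 (SE, edgeR FDR = 2.6e-13) for LPS, and -1.30 ± 0.08 (SE, edgeR FDR = 9.86e-16) for PIC, with every stimulated library below every control library. With TBHQ the levels were 14.2, 14.4 and 12.6 FPKM alone, 7.12, 6.99 and 5.75 with LPS and 5.13, 4.77 and 5.26 with PIC, and each of these groups overlapped its partner without TBHQ.

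The chromatin-linked members carry a PHD finger and a bromodomain. *Trim28*, the corepressor of KRAB zinc finger proteins, had 69.7, 68.8 and 68.8 FPKM in control, 50.5, 47.8 and 51.7 under LPS and 43.9, 44.8 and 46.3 under PIC. Control, LPS and PIC libraries were fully separated, in falling order. LPS gave -0.47 ± 0.03 (SE, edgeR FDR = 3.17e-13), and PIC gave -0.64 ± 0.02 (SE, edgeR FDR = 6.14e-17). With TBHQ it read 70.9, 72.8 and 76.1 FPKM alone, 51.7, 53.3 and 53.1 with LPS and 49.6, 46.8 and 49.1 with PIC, with LPS + TBHQ overlapping LPS, and PIC + TBHQ above PIC in every library. The call for TBHQ with PIC, 0.12 ± 0.03 (SE, edgeR FDR = 0.0153), was lost without PIC replicate 1 or 2 and without PIC + TBHQ replicate 1 or 3, with 0.09 as the lowest value, and was 0.19 under scaling by total count. *Trim24* and *Trim33* were called lower under PIC, with log2FC of -0.39, lost without PIC replicate 2 at -0.26, and -0.18, and *Trim66* had too few counts to test.

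*Trim35*, a PRY-SPRY member with a role in IRF7 turnover, rose evenly. It had 39.1, 38.1 and 38.9 FPKM in control, 59.9, 58 and 59.5 under LPS and 62.5, 63.7 and 60.4 under PIC, and 52.6, 52.6 and 53 and 55.7, 57.9 and 57 with TBHQ added. No stimulated library fell near the control range. The log2FC was 0.60 ± 0.02 (SE, edgeR FDR = 7.92e-17) for LPS, and 0.67 ± 0.03 (SE, edgeR FDR = 2.34e-18) for PIC. The log2FC of TBHQ was -0.17 ± 0.01 (SE, edgeR FDR = 0.000322) with LPS, and -0.12 ± 0.03 (SE, edgeR FDR = 0.00805) with PIC, the last being lost under scaling by total count at -0.05.

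*Trim8*, a regulator of NF-kappaB and SOCS1, was nearly flat across the stimuli. It had 34.1, 31.9 and 32.5 FPKM in control, 33, 29.6 and 35.1 under LPS, 30.2, 29.9 and 31.3 under PIC, 36.4, 36.4 and 37.1 under LPS + TBHQ and 38.9, 34.9 and 38.2 under PIC + TBHQ. PIC + TBHQ libraries were all above the PIC libraries, with log2FC of 0.30 ± 0.05 (SE, edgeR FDR = 2.24e-05). For PIC against control it gave -0.12 ± 0.03 (SE, edgeR FDR = 0.0432), but 10 of 15 alternatives did not call it, DESeq2 included, and scaling by total count took it to -0.34. All LPS + TBHQ libraries were above the LPS libraries, and TBHQ with LPS gave 0.17 ± 0.07 (SE, edgeR FDR = 0.0158), lost in limma on FPKM and without LPS + TBHQ replicate 3, or without LPS replicate 2 at 0.11. *Trim41* moved little, from 16.3, 15.8 and 17.7 FPKM in control to 20.4, 20.3 and 18.9 under PIC, with log2FC of 0.24 ± 0.06 (SE, edgeR FDR = 0.000498), which scaling by total count ended at 0.02.

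Members that were higher with TBHQ in both stimuli included *Trim16*, a member without a RING finger that is linked to p62 and the NRF2 stress response. It had 1.97, 1.64 and 1.74 FPKM in control, 2.33, 2.41 and 2.48 under LPS, 2.29, 2.41 and 2.91 under PIC, 3, 2.5 and 2.54 under TBHQ, 3.49, 3.81 and 3.73 under LPS + TBHQ and 4.22, 3.61 and 3.22 under PIC + TBHQ. The LPS + TBHQ and PIC + TBHQ libraries were above every library without TBHQ. The log2FC of TBHQ was 0.59 ± 0.11 (SE, edgeR FDR = 0.000189) alone, 0.61 ± 0.05 (SE, edgeR FDR = 6e-05) with LPS, and 0.54 ± 0.15 (SE, edgeR FDR = 0.000231) with PIC. *Trim2*, an NHL-repeat member, had 0.599, 0.543 and 0.542 FPKM under LPS, 0.733, 0.762 and 0.672 under LPS + TBHQ, 0.419, 0.353 and 0.362 under PIC and 0.613, 0.656 and 0.697 under PIC + TBHQ. Each TBHQ group lay above its partner, with log2FC of 0.36 ± 0.07 (SE, edgeR FDR = 0.0103) with LPS, and 0.81 ± 0.09 (SE, edgeR FDR = 6.81e-07) with PIC. The LPS value lost its call without LPS + TBHQ replicate 2 at 0.32 and in limma on log2(FPKM + 0.1) at 0.31. In limma on log2(FPKM + 1) the *Trim2* values were 0.14 with LPS and 0.27 with PIC.

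*Trim62*, which acts on the adaptor CARD9, and *Trim47* were called in PIC + TBHQ against PIC alone among the 7 comparisons, at low levels. *Trim62* had 8, 15 and 23 counts under PIC and 27, 35 and 35 under PIC + TBHQ, with log2FC of 1.06 ± 0.34 (SE, edgeR FDR = 0.00896), lost without PIC replicate 1 at 0.79. *Trim47* had 9, 11 and 21 counts under PIC and 24, 25 and 23 under PIC + TBHQ, with log2FC of 0.79 ± 0.25 (SE, edgeR FDR = 0.0492). PIC libraries were below PIC + TBHQ libraries in both genes. The *Trim47* call was lost in 10 of 14 alternatives, DESeq2 included, where the log2FC was 0.79. In limma on log2(FPKM + 1) both genes had a log2FC of 0.25. By the positions in the tables, *Trim47* overlaps *Trim65* on the same strand over 5365 bases.

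Among members with other domains, *Trim37*, a centrosome-linked member with a MATH domain, fell to log2FC of -0.42 under LPS and -0.67 under PIC. *Trim46*, a COS-box member of the axon initial segment in neurons, rose to log2FC of 0.73 and 0.62. *Trim36*, the other COS-box member tested, had log2FC of -0.52 under LPS, lost in 8 of 15 alternatives, among them DESeq2, both limma fits, and leaving out any control replicate, LPS replicate 1 or LPS replicate 2. Over all 15 the LPS value lay between -0.62 and -0.22. *Trim36* had -0.81 under PIC, called in all 15 alternatives, and -0.32 in limma on log2(FPKM + 1). *Trim65*, an activator of MDA5, had 1.25 ± 0.141 FPKM in control (SD, n = 3) and 1.95 ± 0.104 under TBHQ alone, with log2FC of 0.64, or 0.39 in limma on log2(FPKM + 1), and it was lower under both stimuli. *Trim3* was called higher under PIC at a log2FC of 0.19, lost without control replicate 2 or 3 or PIC replicate 1 or 2, and scaling by total count turned it to -0.025.

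The domain classes gave the following counts among tested members, where 48.1% of all genes were called under LPS and 58.7% under PIC. By direction, 24.0% of all genes were higher and 24.1% lower under LPS, and 28.6% higher and 30.1% lower under PIC. The classes were not tested against those shares. Of the 4 chromatin-linked members 3 were tested, with 1 lower under LPS and 3 lower under PIC. The 4 NHL-repeat members had 3 tested, where *Trim3* was higher and *Trim2* lower under PIC and *Trim32* was called in neither stimulus. Of 8 COS-box members 2 were tested, *Trim46* and *Trim36*, with opposite directions in each stimulus. The 3 members with an ARF, MATH or filamin domain, *Trim23*, *Trim37* and *Trim45*, were all tested, and *Trim37* was lower under LPS and PIC. *Trim23* was lower with TBHQ in PIC, at a log2FC of -0.28, lost without PIC replicate 2, PIC replicate 3 or PIC + TBHQ replicate 1 and at -0.21 under scaling by total count. Of 8 members with no named C-terminal domain 3 were tested, and *Trim56* was higher and *Trim44* lower under both stimuli, with *Trim8* also lower under PIC in edgeR. Of 5 members lacking a RING finger 3 were tested, *Trim14*, *Trim16* and *Trim44*, with 1 higher and 1 lower under each stimulus.

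To show the sequence at the starts of cluster members, RefSeq promoter windows on GRCm38.p6 were searched for the core of the interferon-stimulated response element, GAAANNGAA, on both strands. The windows hold 300 bases, 250 before and 50 after the start of a gene. Of the members, 52 had a window and 11 of these held a match, or 21.2%, beside 9.76% of 27025 genes. Some of the member matches lie in near copies of a stretch shared by paralogs. This holds for *Trim5*, *Trim12a* and *Trim12c*, and for *Trim30a* and *Trim30d*, so the share counts such a match more than once. A match describes letters and not a bound site. The windows of *Trim30a*, *Trim30d*, *Trim12c*, *Trim34a* and *Trim21* are shown because these members were lower with TBHQ in LPS and hold a match no more than 40 bases from the start. Capitals mark the match, and each window is written 5′ to 3′ on the strand of its gene. In *Trim21* a pair of overlapping matches lies on that strand, while in the other windows shown the match lies on the opposite strand and the capitals are its complement. The match begins 35 bases before the start in *Trim30a*, 40 in *Trim30d* and 28 in *Trim12c*, and at base 12 after it in *Trim34a* and base 14 in *Trim21*. *Trim30a* has 2 windows with a match, and the one shown holds it before the start. Among members also lower with TBHQ in LPS, *Trim30c*, *Trim13* and *Trim56* have windows without a match, and in *Trim34b* it lies farther from the start. *Trim14* and *Trim35*, lower there as well, had no window. *Trim7* and *Trim26*, called in none of the edgeR comparisons, and *Trim2*, higher with TBHQ, also hold a match.
*Trim30a*, chr7:104465144-104465443, minus strand: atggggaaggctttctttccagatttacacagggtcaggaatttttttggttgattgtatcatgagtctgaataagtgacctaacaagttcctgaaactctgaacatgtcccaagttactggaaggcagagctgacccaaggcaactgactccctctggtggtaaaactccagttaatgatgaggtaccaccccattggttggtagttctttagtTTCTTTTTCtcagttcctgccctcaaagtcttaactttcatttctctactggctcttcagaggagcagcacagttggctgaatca
*Trim30d*, chr7:104507800-104508099, minus strand: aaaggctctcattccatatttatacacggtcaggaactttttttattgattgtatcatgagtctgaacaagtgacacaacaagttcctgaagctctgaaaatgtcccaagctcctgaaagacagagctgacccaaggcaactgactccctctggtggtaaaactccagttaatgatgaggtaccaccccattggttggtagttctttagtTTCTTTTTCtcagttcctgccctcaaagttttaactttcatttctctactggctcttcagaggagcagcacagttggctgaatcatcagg
*Trim12c*, chr7:104353300-104353599, minus strand: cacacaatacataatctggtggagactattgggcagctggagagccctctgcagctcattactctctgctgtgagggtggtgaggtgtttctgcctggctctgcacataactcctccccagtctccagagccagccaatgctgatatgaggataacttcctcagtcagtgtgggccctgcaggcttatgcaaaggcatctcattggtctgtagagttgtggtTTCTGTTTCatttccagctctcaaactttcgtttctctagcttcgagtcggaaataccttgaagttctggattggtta
*Trim34a*, chr7:104244207-104244506, plus strand: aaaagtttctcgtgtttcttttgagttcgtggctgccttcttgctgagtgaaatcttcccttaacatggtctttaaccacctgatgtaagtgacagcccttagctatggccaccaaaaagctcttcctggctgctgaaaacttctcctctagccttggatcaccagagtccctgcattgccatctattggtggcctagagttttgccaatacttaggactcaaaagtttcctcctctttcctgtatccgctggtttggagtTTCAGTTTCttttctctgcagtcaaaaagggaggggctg
*Trim21*, chr7:102565433-102565732, minus strand: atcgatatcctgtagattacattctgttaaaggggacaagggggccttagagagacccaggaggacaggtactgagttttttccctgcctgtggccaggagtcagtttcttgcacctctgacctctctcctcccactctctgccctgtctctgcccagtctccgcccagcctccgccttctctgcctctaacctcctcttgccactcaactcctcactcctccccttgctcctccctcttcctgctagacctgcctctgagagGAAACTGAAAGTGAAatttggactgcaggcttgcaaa

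Of 4 family members that carry other names 2 were tested. *Pml*, the organizer of nuclear bodies, was called higher under LPS at log2FC 0.30 and under PIC at 0.29, and lower with TBHQ in both. *Mid1* was called under PIC at 1.70 and, with TBHQ added, at -0.97. *Mefv* and *Mid2* were not tested.

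The 12 signalling proteins that TRIM members act on were all tested. Under LPS 7 were higher and 1 lower, beside 24.0% and 24.1% of all genes, and under PIC 8 were higher and 3 lower, beside 28.6% and 30.1%. *Irf7* rose by 1.51 log2 under LPS and 1.73 under PIC, and *Ikbke* by 1.56 and 2.28. *Ticam1*, the adaptor TRIF, rose by 0.92 and 1.23, while *Cgas* was lower at -0.59 and -0.77. With TBHQ, 5 were lower and 1 higher in LPS, beside 12.2% and 11.7% of all genes, and 7 were lower and 3 higher in PIC, beside 15.5% and 15.8%. *Irf7* had the largest of these changes, at -1.38 in LPS and -0.75 in PIC, and its difference of TBHQ effects was called at 0.63.

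For scale beside the interferon-inducible or antiviral members, 9 interferon-stimulated genes outside the family had a median log2FC of 1.23 under LPS and 2.04 under PIC, with 8 and 9 called higher, beside 24.0% and 28.6% of all genes. *Rsad2* reached 3.85 and *Ifit3* 2.67 under PIC. With TBHQ all 9 were called lower in each stimulus, at medians of -1.78 in LPS and -1.11 in PIC, where 12.2% and 15.5% of all genes were lower. The difference of TBHQ effects was called for 6 of these 9 genes, and for 1 of the 11 tested interferon-inducible or antiviral members, *Trim14*, beside 1.83% of all genes. All of these differences were positive, beside 0.825% of all genes. The *Trim14* call was lost in 9 of 21 alternatives, and *Trim14* was called in neither stimulus against control. The TBHQ exposure genes *Hmox1*, *Nqo1*, *Gclm*, *Srxn1* and *Txnrd1* were all called higher under TBHQ alone, beside 14.2% of all genes. *Nqo1* rose by 3.24 and *Hmox1* by 2.09 log2. All 5 exposure genes were also called higher under LPS alone, and all but *Nqo1* under PIC alone, beside 24.0% and 28.6% of all genes. With TBHQ added to LPS or PIC, 4 were called higher in each, beside 11.7% and 15.8% of all genes. *Hmox1* was called lower at -0.30 and -0.17.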

How the data were processed

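Total RNA of 18 RAW 264.7 libraries was sequenced after poly-T selection. The authors aligned reads with HISAT2 2.0.5 and counted them with featureCounts 1.5.0-p3, and the deposited values used here are raw read counts per gene. The deposited FPKM values, made by the authors from the same counts, gave levels. Relative to scaling by total count they carry a factor per library, from 0.9428 in control replicate 3 to 1.116 in PIC replicate 2.

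Counts were filtered with filterByExpr, which left 13691 genes, normalized with TMM and tested in edgeR 4.0.16 (R 4.3.3) with 1 coefficient per group over all libraries. Calls used FDR below 0.05. SE came from log2 CPM with a prior count of 2. Depth limits each value by counting error, and the floors given cover counting error only. The test was checked on simulated data, where recovery of the changes put in was incomplete for genes with few counts, most of all for small changes. The recovery criterion was first set over all count levels together, which DESeq2 did not meet, and was then limited to larger changes in genes with more counts.

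Any member could be named. Values per library and full statistics went to members called with absolute log2FC of at least 1 in LPS or PIC against control, or at least 0.5 in LPS + TBHQ against LPS or PIC + TBHQ against PIC, and to the 5 members with the highest mean FPKM. *Trim14* and *Trim65* fall outside this rule and were given values after theirs were seen. Genes of the lists were named where called in LPS or PIC against control.

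Alternatives were DESeq2 1.42.0, limma 3.58.1 on log2 FPKM with 1 or 0.1 added, other scalings and filters, the compared groups alone, a replicate block, and leaving out each library. The members and lists were chosen with earlier results of these data known. Promoter windows came from RefSeq and shared 50-base runs from GENCODE M21. *Trim25*, protein patterns and other series were not analysed here. A further marker list is not reported here.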

Additional observations from a re-analysis of the deposited data

Results flagged for a closer look

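*Trim14* was set apart by the test of the difference between the TBHQ effects, where the effect under PIC minus that under LPS was 0.44 log2. The effect was -0.25 under LPS, a call lost in both limma fits, without LPS + TBHQ replicate 2 at -0.22 and without LPS replicate 3 at -0.15, and 0.19 under PIC, which was not called. It was the 1 of 37 tested members that edgeR called in this test, and DESeq2 called 1 as well. The call was lost without LPS replicate 3, PIC replicate 1, PIC replicate 3, LPS + TBHQ replicate 1, LPS + TBHQ replicate 2 or PIC + TBHQ replicate 3, with values between 0.323 and 0.504 over the libraries left out in turn. The overlap with *Nans* on the opposite strand, whose counts were not separated here, was not tested as a source of the difference.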

How the results depend on the processing

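Over the 7 comparisons 104 member results were called, of which 65 were called under every alternative run and 39 were lost under at least 1, with 35 lost when 1 library was left out. The direction reversed in 1 result, *Trim3* in PIC against control, at -0.025 with total library size. With a filter at a mean of at least 50 counts, the members past FDR 0.01 and absolute log2FC 2 in PIC against control numbered 0, as they did in limma on log2(FPKM + 1), and limma on log2(FPKM + 0.1) gave 1. With total library size, 14 members were called higher in PIC + TBHQ against PIC, and 3 in PIC against LPS. Of all genes called with that setting, 70.3% and 18.4% were higher. The difference of the TBHQ effects gave 0 members called, and 0 called higher, with the compared groups only and in both limma fits. With 1 library left out, members called lower under TBHQ alone numbered 2 to 5, called higher in PIC + TBHQ against PIC 4 to 8, and called higher in PIC against LPS 3 to 6. Members called lower in PIC against LPS numbered 4 to 9 and members called, or called higher, in the difference of effects 0 to 1. The cause of these changes was not tested. The filter at a mean of 50 counts gave no value for 13 of the 104 results, and DESeq2 none for 1. A check of residuals showed no pairing of replicate numbers across groups. Of 18 correlations between libraries of the same number, 0 passed 0.1, with a range of -0.0444 to 0.0645. The check sees only pairing that moved expression, so it does not show that libraries of the same number were handled apart. Depth limits the low members most, since *Trim30b* had 2 to 7 counts in control libraries.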
